A study of Mus musculus with 2 samples.

Results

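The genes described here are the expressed zinc finger genes named Zfp1 to Zfp799 in mouse pro-B cells, the B cell precursors of the bone marrow. Members were chosen by their symbol, Zfp and a number up to that of Zfp799 with an optional letter and without those that begin Zfp36, and selected on their level: any transcript had to reach 2 RPKM in either library. RPKM is reads per kilobase of transcript, scaled to the depth of the library. Of 294 such symbols in the table, 183 met the level and 111 did not, among 36980 gene symbols in all. The difference between the libraries was not used, but a gene below 2 RPKM in 1 library entered only through the other, so its level had to be higher there.

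RNA came from 2 cultures, 1 of Setdb1 Δ/Δ pro-B cells, in which Setdb1 is deleted, and 1 of Setdb1 C/C cells, which carry undeleted alleles. Cells of both genotypes carried a bcl2 transgene, came from bone marrow after flow sorting, and grew with interleukin 7 at 5 ng/µl for 4 days. Total RNA without ribosomal RNA was sequenced as 101-base read pairs. The labels give no strain, age, sex, transgene promoter, or deleter of Setdb1, and do not say whether animals were pooled. Each genotype had 1 library, so the differences below rest on a single pair of libraries, without replicates or p-values.

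Most Zfp genes encode proteins with a row of C2H2 zinc fingers, each of which folds around a zinc ion and contacts a few bases of DNA. Many carry a KRAB domain at the amino end, which recruits the co-repressor TRIM28 and through it the histone H3 lysine 9 methyltransferase SETDB1, so that the bound DNA, often a retroviral sequence, is silenced. KRAB zinc finger genes multiplied by tandem duplication and lie in arrays of near copies. Other Zfp genes have no KRAB domain and act in transcription, RNA handling, protein synthesis or the mitotic spindle.

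The libraries stood apart in more than their genotype. Xist, the RNA of the inactive X chromosome, was at 23.7 RPKM in Δ/Δ and 0.0940 RPKM in C/C, and 4 of 4 Y-linked genes were at 0 to 0.02 RPKM in Δ/Δ and 5.37 to 22.3 RPKM in C/C, so sex and genotype cannot be told apart for any gene. The B lineage markers were all expressed, with a summed level of 3152 RPKM in Δ/Δ and 4379 RPKM in C/C over 11 genes, 4 of them lower in Δ/Δ. Of 14 myeloid markers, 10 reached 2 RPKM and 8 were higher in Δ/Δ, with sums of 273.3 RPKM in Δ/Δ and 37.8 RPKM in C/C. The erythroid and platelet sum was 76.1 RPKM in Δ/Δ and 8.62 RPKM in C/C, the dendritic cell sum 13.3 RPKM in Δ/Δ and 1.55 RPKM in C/C, and the T lineage sum 70.7 RPKM in Δ/Δ and 44.4 RPKM in C/C. Thy1 alone made up most of the T lineage sum, which without it was 15.0 RPKM in Δ/Δ and 20.7 RPKM in C/C. In C/C, 2 myeloid markers and 1 T lineage marker were listed at 0. In bulk RNA, fewer cells of a type and less RNA per cell cannot be told apart, and the part of these markers in the values below was not tested. Setdb1 itself was at 12.6 RPKM in Δ/Δ and 16.97 RPKM in C/C, a value over whole transcripts that cannot show how complete the deletion was. The depth was 193.3 M reads (M, mega) in Δ/Δ and 170.6 M reads in C/C, as recovered from the values.

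The Zfp genes were modestly expressed, and most stayed short of the 2-fold rule given below. Their median level was 5.38 RPKM in Δ/Δ and 6.28 RPKM in C/C, against 12.1 RPKM in Δ/Δ and 12.8 RPKM in C/C over all 11279 genes past the same limit. A gene was called higher or lower when log2((Δ/Δ + 0.5)/(C/C + 0.5)), here the log2 ratio, reached 1 or -1, a 2-fold difference on that scale, which understates the difference of low genes. By this rule 7 members were higher in Δ/Δ, 2 were lower and the rest were neither. Over all genes past the limit, 5.75% were higher and 6.41% were lower in Δ/Δ, against 3.83% and 1.09% of the members. The median log2 ratio of the members was -0.22 and their middle 50% lay between -0.46 and 0.20, while the median of all genes was -0.09. Of the members, 69 lay above 0 and 113 below it, against 4755 above and 6521 below of all 11279 genes.

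The limit on level weighs on these counts. The 156 members at 2 RPKM or more in both libraries held 1 higher gene, Zfp709, and 1 lower gene, Zfp41. Under the same limit 3.52% of all genes were higher and 3.62% lower, and 0.641% of the members were called each way. The other 6 higher genes were among the 15 members that passed in Δ/Δ only, and the other lower gene, Zfp318, was among the 12 that passed in C/C only. The 62 members with a transcript at 10 RPKM or more in either library held no called gene. Over all 6941 genes at that level, 4.47% were higher and 4.97% lower. The median log2 ratio was -0.33 for these members, against -0.09 for all genes at that level. Of the 52 members whose highest value lay between 5 and 10 RPKM, 5.77% were higher and 3.85% lower, against 6.48% and 7.53% of all genes there. Of the 69 members between 2 and 5 RPKM, 5.80% were higher and none lower, against 9.17% and 9.92% of all genes there. These 69 had a median of -0.06, against -0.10 for all genes at that level. Counting error was small beside most differences: the exact 95% interval of the ratio lay above 1 for 51 members, below 1 for 103, and held 1 for 29. These intervals take 2 reads as 1 fragment and cover counting error only. They were computed for the members alone, so this split cannot be set beside that of all genes, whose median was also below 0. Just inside the limit were Zfp40 at 2.03 RPKM in Δ/Δ and 1.27 in C/C, Zfp189 at 2.03 in Δ/Δ and 1.998 in C/C, and Zfp316 at 1.01 in Δ/Δ and 2.07 in C/C. Just outside it were Zfp69, Zfp661 and Zfp758, none of whose transcripts exceeded 1.98 RPKM.

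**Figure D1:**
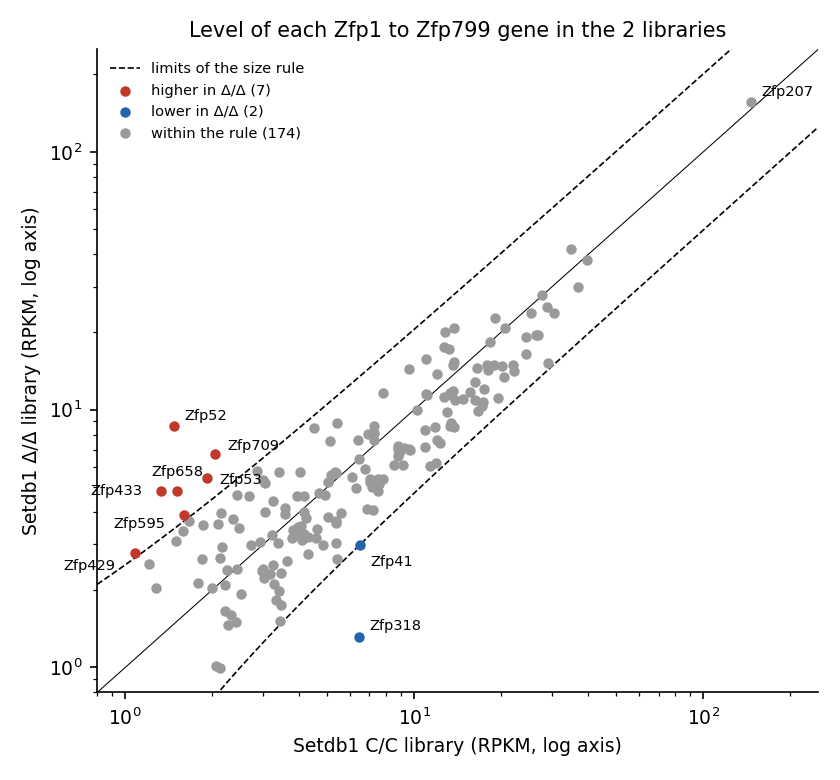
RPKM of the 183 Zfp genes in the Setdb1 Δ/Δ library (vertical, log axis) against the Setdb1 C/C library (horizontal, log axis), 1 point per gene. The 7 genes above the upper broken line are all below 10 RPKM in both libraries, while Zfp207, at 155.9 RPKM in Δ/Δ and 146.3 RPKM in C/C, lies close to the line of equal levels.

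**Figure D2:**
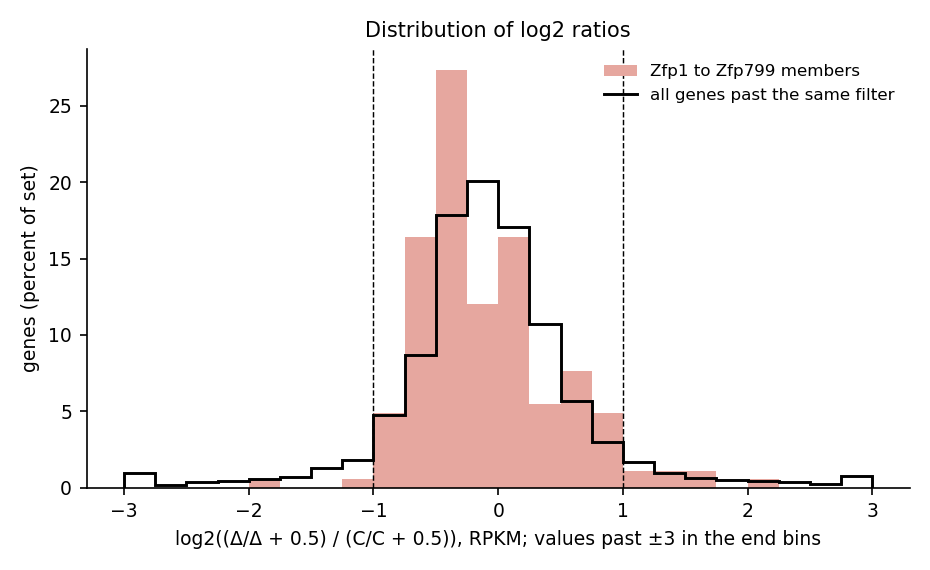
Share of genes (percent) in bins of the log2 ratio, Δ/Δ over C/C, for the Zfp genes (filled) and for all 11279 genes past the same limit (line). The members' fullest bin lies between -0.50 and -0.25 and that of all genes between -0.25 and 0, and a smaller share of members than of genes lies past the broken lines at -1 and 1.

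A run of Zfp genes on chromosome 17 held the member with the highest log2 ratio. Zfp52 (chr17:21535539-21562601, GRCm38, plus strand) was at 8.64 RPKM in Δ/Δ and 1.47 RPKM in C/C, a ratio of 5.86 (95% counting interval 5.15 to 6.67), and its log2 ratio of 2.21 was the highest of the members. Its neighbour Zfp53 (chr17:21488998-21510473, plus strand) was at 5.44 RPKM in Δ/Δ and 1.91 RPKM in C/C, a ratio of 2.85 (2.51 to 3.22). Both genes encode KRAB zinc finger proteins. Members less than 500 kb from the next member were taken as a run, and the run of Zfp52 held 7 members over 760 kb (chr17:21008903-21769342). The other 5 were also above 0 but did not reach the rule: Zfp160 was at 3.59 RPKM in Δ/Δ and 2.09 RPKM in C/C, and Zfp54 was at 3.09 RPKM in Δ/Δ and 1.497 RPKM in C/C. Zfp51 was at 3.39 RPKM in Δ/Δ and 1.58 RPKM in C/C. The 7 log2 ratios ran from 0.66 to 2.21 with a median of 0.85. For 5 of the 7 (Zfp52, Zfp53, Zfp51, Zfp54 and Zfp760) the sign follows from the limit on level, which they passed in Δ/Δ only. The 2 that passed in both libraries, Zfp160 and Zfp229, had log2 ratios of 0.66 and 0.68. Zfp760 was at 3.58 RPKM in Δ/Δ and 1.86 RPKM in C/C, and Zfp229 at 5.18 RPKM in Δ/Δ and 3.04 RPKM in C/C. No window of 101 bases, the read length, of the Zfp52 and Zfp53 transcripts occurred in a transcript of another gene.

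Genes between and beside these members that are not in the set were also read. Within 500 kb of the run, 8 of 8 genes from Zfp800 to Zfp999 with at least 0.5 RPKM in a library were above 0, but 4 of them reached 0.5 RPKM in Δ/Δ only, which fixed their sign. The 4 that reached it in both libraries included Zfp983, between Zfp52 and Zfp760, at 11.96 RPKM in Δ/Δ and 1.56 RPKM in C/C. Zfp677, under the 2 RPKM limit, was at 1.35 RPKM in Δ/Δ and 0.679 RPKM in C/C. Of 3 genes of other names, Gm10509 and Gm10226, inside the run, were higher in Δ/Δ. Both reached 0.5 RPKM in Δ/Δ only, which fixed their sign. Ppp2r1a, beside the run, encodes a scaffold subunit of protein phosphatase 2A. It was at 112.0 RPKM in Δ/Δ and 87.7 RPKM in C/C, a log2 ratio of 0.35. Over the whole of chromosome 17 the median log2 ratio was 0.49 for its 16 members and -0.19 for all its 591 genes past the limit. The 16 include the 7 of this run. Of those 7, 5 passed the limit in Δ/Δ only, as did Zfp40, which fixed their sign. The median was not taken for members past the limit in both libraries, so it cannot show a trait of the chromosome.

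The promoters of Zfp52, Zfp53 and Zfp54, which lie side by side with Zfp51 in this run, are shown because they are alike in sequence. The sequences are from RefSeq (GRCm38.p6) and span 250 bases before to 50 bases after the annotated start, on the plus strand. Capitals mark runs of at least 10 bases shared with another of these 3 promoters. They lie at chr17:21535289-21535588 for Zfp52, chr17:21488738-21489037 for Zfp53 and chr17:21422977-21423276 for Zfp54 (the first of its entries).
Zfp52: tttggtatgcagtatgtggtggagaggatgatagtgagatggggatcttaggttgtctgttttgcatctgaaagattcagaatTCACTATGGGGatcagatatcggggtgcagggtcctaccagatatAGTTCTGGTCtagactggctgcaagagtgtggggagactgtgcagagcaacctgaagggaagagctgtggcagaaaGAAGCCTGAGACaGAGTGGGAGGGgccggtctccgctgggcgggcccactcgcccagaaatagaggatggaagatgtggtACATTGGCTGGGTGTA
Zfp53: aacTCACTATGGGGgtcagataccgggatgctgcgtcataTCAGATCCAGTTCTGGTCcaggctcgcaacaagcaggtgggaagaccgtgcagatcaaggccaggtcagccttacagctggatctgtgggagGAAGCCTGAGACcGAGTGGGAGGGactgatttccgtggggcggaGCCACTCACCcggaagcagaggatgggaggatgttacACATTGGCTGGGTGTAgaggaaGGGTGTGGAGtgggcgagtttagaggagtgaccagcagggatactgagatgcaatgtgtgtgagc
Zfp54: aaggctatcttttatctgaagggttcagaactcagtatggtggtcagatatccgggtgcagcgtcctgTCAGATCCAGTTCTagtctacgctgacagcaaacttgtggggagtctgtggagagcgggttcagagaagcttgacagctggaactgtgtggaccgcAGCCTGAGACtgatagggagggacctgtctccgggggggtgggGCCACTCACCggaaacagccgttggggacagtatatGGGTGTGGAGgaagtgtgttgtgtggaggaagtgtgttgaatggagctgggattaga
Aligned, Zfp52 and Zfp53 were identical at 78.8% of 217 columns without gaps, Zfp52 and Zfp54 at 74.8% of 238, and Zfp53 and Zfp54 at 74.3% of 269. The longest run shared by Zfp52 and Zfp53, the 2 genes called higher, was ACATTGGCTGGGTGTA, which no other promoter of the table holds. It lies at the end of the Zfp52 window and inside that of Zfp53, so the alike stretches are offset against the annotated starts. The table had no entry for Zfp51.

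The second run with more than 1 called gene was on chromosome 13. It held 9 members over 416 kb (chr13:67312998-67729173), 6 of them above 0 and 3 below. Of the 6 above 0, Zfp595, Zfp429 and Zfp729a passed the limit in Δ/Δ only. Zfp595 (chr13:67312998-67332570, minus strand) was at 3.90 RPKM in Δ/Δ and 1.60 RPKM in C/C, a ratio of 2.44 (2.001 to 3.001) and a log2 ratio of 1.07. That value is of a non-coding transcript of the gene, and its other 4 transcripts had log2 ratios of 0.65 to 0.78, short of the rule. Zfp429 (chr13:67387905-67399819, minus strand) was at 2.77 RPKM in Δ/Δ and 1.08 RPKM in C/C, a ratio of 2.57 (2.17 to 3.05) and a log2 ratio of 1.05. In the middle of the run, 3 neighbours had the lower level in Δ/Δ, none of them past the rule. Zfp58 was at 4.98 RPKM in Δ/Δ and 6.28 RPKM in C/C, Zfp87 was at 11.7 RPKM in Δ/Δ and 15.6 RPKM in C/C, and Zfp748 was at 5.14 RPKM in Δ/Δ and 7.54 RPKM in C/C. With the longest annotated transcript in place of the most abundant, Zfp58 was at 0.29 and Zfp748 at 0.21 on the log2 ratio, so the direction of these 2 depends on the transcript, while the 4 transcripts of Zfp87 lay between -0.40 and -0.17. The members on their far side had the higher level in Δ/Δ, none past the rule. Zfp729a was at 2.51 RPKM in Δ/Δ and 1.21 RPKM in C/C, Zfp729b at 5.35 RPKM in Δ/Δ and 2.99 RPKM in C/C, Zfp738 at 4.61 RPKM in Δ/Δ and 2.68 RPKM in C/C, and Zfp65 at 5.73 RPKM in Δ/Δ and 3.39 RPKM in C/C. Of the 101-base windows of the Zfp729b transcript, 81.9% also occur in other genes of the array, and 81.3% of those of Zfp58 occur in the read-through gene Gm26965, so the values of these genes are uncertain.

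Within 500 kb of this run, 8 of 8 Zfp1 to Zfp799 genes under the 2 RPKM limit and 3 of 3 from Zfp800 to Zfp999 were above 0, counting genes with at least 0.5 RPKM in a library, as were the 5 and 3 of them with 0.5 RPKM in both libraries. One of those under the limit, Zfp708, a KRAB repressor of a retroviral repeat in mouse embryonic cells, was at 0.920 RPKM in Δ/Δ and 0.381 RPKM in C/C. The 12 genes of other names there, which include the read-through gene Gm26965, were split, 6 above 0 and 6 below. Of them 1 was called higher and 1 lower. The lower one was the pseudogene Gm9625, on the side of Zfp65, at 0.19 RPKM in Δ/Δ and 56.1 RPKM in C/C. The ordinary genes on the side of Zfp595 included Ptdss1, a phosphatidylserine synthase, at 21.5 RPKM in Δ/Δ and 21.8 RPKM in C/C. Beyond it lay Mterf3, at 11.3 RPKM in Δ/Δ and 12.4 RPKM in C/C. The gene called higher was Uqcrb, a subunit of respiratory complex III, at 165.6 RPKM in Δ/Δ and 45.9 RPKM in C/C.

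**Figure D3:**
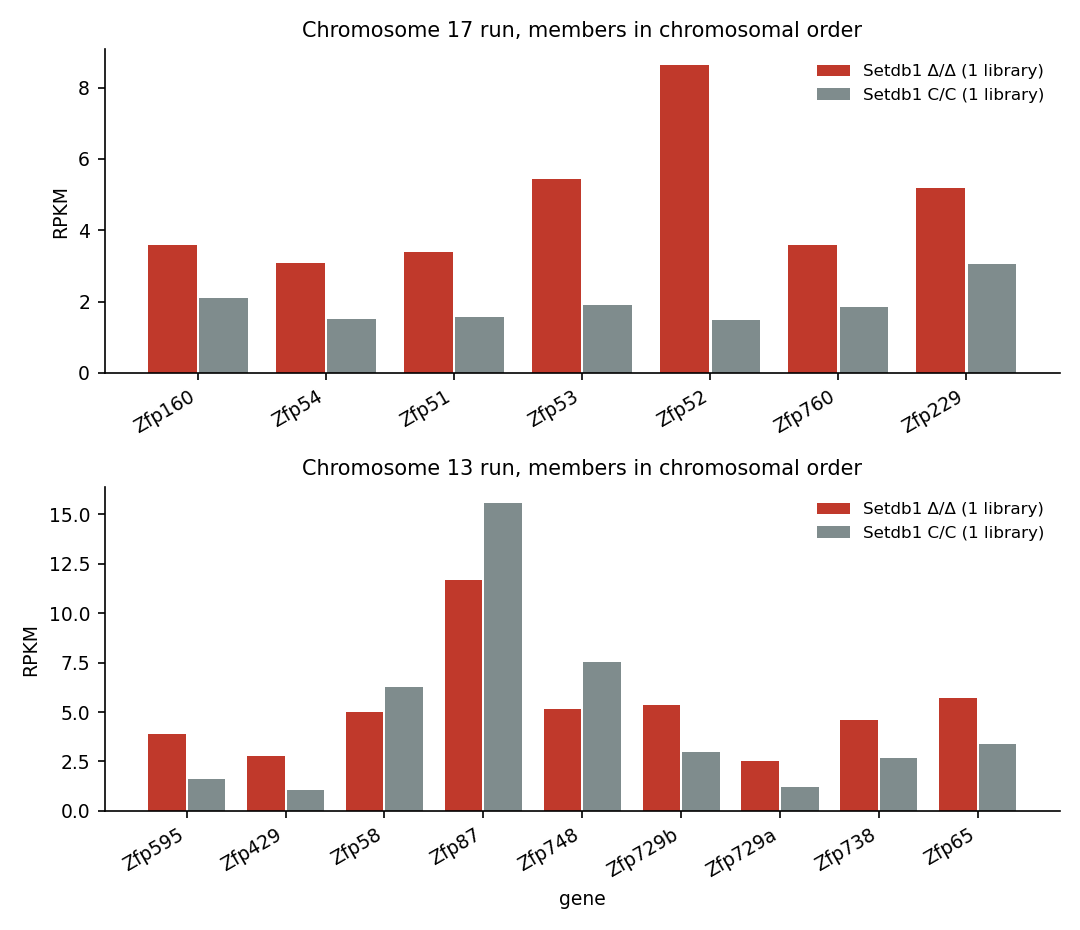
RPKM of each member of the chromosome 17 run (top) and the chromosome 13 run (bottom), in chromosomal order, with the Setdb1 Δ/Δ library (left bar) beside the Setdb1 C/C library (right bar), 1 library each and so no error bars. The Δ/Δ bar is the taller in 7 of 7 members on chromosome 17 and in 6 of 9 on chromosome 13, where Zfp58, Zfp87 and Zfp748 are the exceptions, and 8 of the 16 passed the limit on level in Δ/Δ only.

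The promoters of Zfp595 and Zfp429 were less alike, with 62.9% identity over 259 columns without gaps, but shared a motif. They are shown, on the minus strand and from RefSeq (GRCm38.p6), at chr13:67332511-67332810 and chr13:67399718-67400017, with the motif in capitals.
Zfp595: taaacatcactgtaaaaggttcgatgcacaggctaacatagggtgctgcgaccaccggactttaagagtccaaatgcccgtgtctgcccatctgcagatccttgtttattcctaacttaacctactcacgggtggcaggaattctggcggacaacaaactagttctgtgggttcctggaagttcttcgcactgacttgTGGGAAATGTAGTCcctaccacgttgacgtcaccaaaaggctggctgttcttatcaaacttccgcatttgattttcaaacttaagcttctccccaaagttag
Zfp429: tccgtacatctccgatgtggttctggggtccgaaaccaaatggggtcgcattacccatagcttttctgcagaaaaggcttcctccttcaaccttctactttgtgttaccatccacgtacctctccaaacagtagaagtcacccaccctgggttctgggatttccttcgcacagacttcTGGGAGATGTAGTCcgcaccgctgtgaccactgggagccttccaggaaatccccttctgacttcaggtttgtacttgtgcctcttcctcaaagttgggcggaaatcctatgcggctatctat
The motif, TGGGANNTGTAGTC, was read from these promoters and so was chosen after they had been seen. It holds the letters that the 7 members of the run with a promoter entry share in their windows nearest to the longest stretch common to Zfp595 and Zfp429 with at most 1 mismatch. It resembles the sites known for the activator Zfp143. All 7 hold it by construction, including Zfp58 and Zfp748, which were below 0 by their most abundant transcript. On either strand it was found in 0.836% of the 27025 genes with a promoter in the table, in 1.95% of the 8135 past the 2 RPKM limit, and in 10.7% of the 150 members with a promoter, or 16 genes. None of the 6 members with an entry in the chromosome 17 run held it. The 16 members with the motif had 2 higher genes and a median log2 ratio of 0.15. The 134 without had 5 higher, 1 lower and a median of -0.20. Of the 16, 7 are the run from which it was read, among them both higher genes, Zfp595 and Zfp429. The share of members and this contrast therefore include genes that hold the motif by construction. The motif members outside that run had log2 ratios from -0.54 (Zfp128) to 0.96 (Zfp566), none called. A match is a run of letters, not evidence of binding. Zfp143 itself was at 11.8 RPKM in Δ/Δ and 13.7 RPKM in C/C. The members' promoters held a median of 17 CpG dinucleotides, against 7 over all 32851 promoters. Those 32851 include promoters of genes under the limit on level, by which the members were selected. The median was not taken for all genes past the limit, so this contrast cannot show a trait of Zfp genes. The median was 10 for the 7 higher members, 8.5 for the 6 of the chromosome 17 run and 8 for the 7 of the chromosome 13 run.

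The other 3 higher genes lay apart from each other. Zfp433 (chr10:81704825-81726686, plus strand) was at 4.83 RPKM in Δ/Δ and 1.33 RPKM in C/C, a ratio of 3.63 (3.12 to 4.26), but 82.2% of its 101-base windows also occur in Gm32687. Zfp709 on chromosome 8 was at 6.74 RPKM in Δ/Δ and 2.05 RPKM in C/C, a ratio of 3.30 (2.95 to 3.71), and was the only higher gene above 2 RPKM in both libraries. Zfp658 on chromosome 7, whose human namesake takes part in the response to zinc, was at 4.86 RPKM in Δ/Δ and 1.51 RPKM in C/C, a ratio of 3.22 (2.85 to 3.64). Its neighbours did not share that difference: Zfp715 and Zfp719, in the same run of 3, were not called, and the median of that run was 0.02. Next below the rule stood Zfp566 at 3.68 RPKM in Δ/Δ and 1.66 RPKM in C/C, with 74.8% of its windows in a read-through gene, and the X-linked Zfp280c at 5.79 RPKM in Δ/Δ and 2.85 RPKM in C/C. Zfp560 was at 8.48 RPKM in Δ/Δ and 4.50 RPKM in C/C, in a run on chromosome 9 whose 4 members (with Zfp26, Zfp426 and Zfp266) were above 0, with a median of 0.51.

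Members with the lower level in Δ/Δ outnumbered those with the higher, as was also so over all genes, but mostly differed by small amounts. Zfp318, a factor that lets mature B cells make the long transcript for IgD, was lowest: 1.32 RPKM in Δ/Δ and 6.42 RPKM in C/C, a ratio of 0.205 (0.17 to 0.25) and a log2 ratio of -1.93. The value is of a short transcript that keeps an intron, but the 5 transcripts listed were all lower, with log2 ratios from -1.93 to -1.49. Zfp41 on chromosome 15 was at 2.99 RPKM in Δ/Δ and 6.50 RPKM in C/C, a ratio of 0.460 (0.43 to 0.50) and a log2 ratio of -1.004 that only just met the rule. Close behind and not called were Zfp579 at 1.52 RPKM in Δ/Δ and 3.43 RPKM in C/C, Zfp169 at 2.63 RPKM in Δ/Δ and 5.41 RPKM in C/C, and Zfp740 at 15.2 RPKM in Δ/Δ and 28.9 RPKM in C/C. Zfp740 was the most abundant of the 12 lowest. Zfp382 was at 6.19 RPKM in Δ/Δ and 11.9 RPKM in C/C, and Zfp653 at 6.05 RPKM in Δ/Δ and 11.3 RPKM in C/C. The remaining 5 of the 12 lowest (Zfp286, Zfp516, Zfp787, Zfp316 and the pseudogene Zfp783) had log2 ratios from -0.82 to -0.74. Among them Zfp516 is known in the mouse as an activator of brown fat genes.

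In all, 17 runs of at least 3 members held 87 of the 183, and their medians differed from run to run. The median log2 ratio was above 0 in 5 runs and below 0 in 12. The largest run, 10 members on chromosome 7 (chr7:127233061-127885996, Zfp553 to Zfp646), lay wholly below 0, with a median of -0.48 and no called gene. So did the 6 members from Zfp398 to Zfp746 on chromosome 6, with a median of -0.52, and 4 runs of 3. In the runs of 3 from Zfp251 and from Zfp628, 2 members passed the limit on level in both libraries. The other member of each passed in C/C only, which fixed its sign. Chromosome 7, with 55 members, had a median of -0.36 for them and -0.25 for all its genes, so the background there was also below 0. On chromosome 15 the 10 members had a median of -0.54 and all its genes -0.17.

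**Figure D4:**
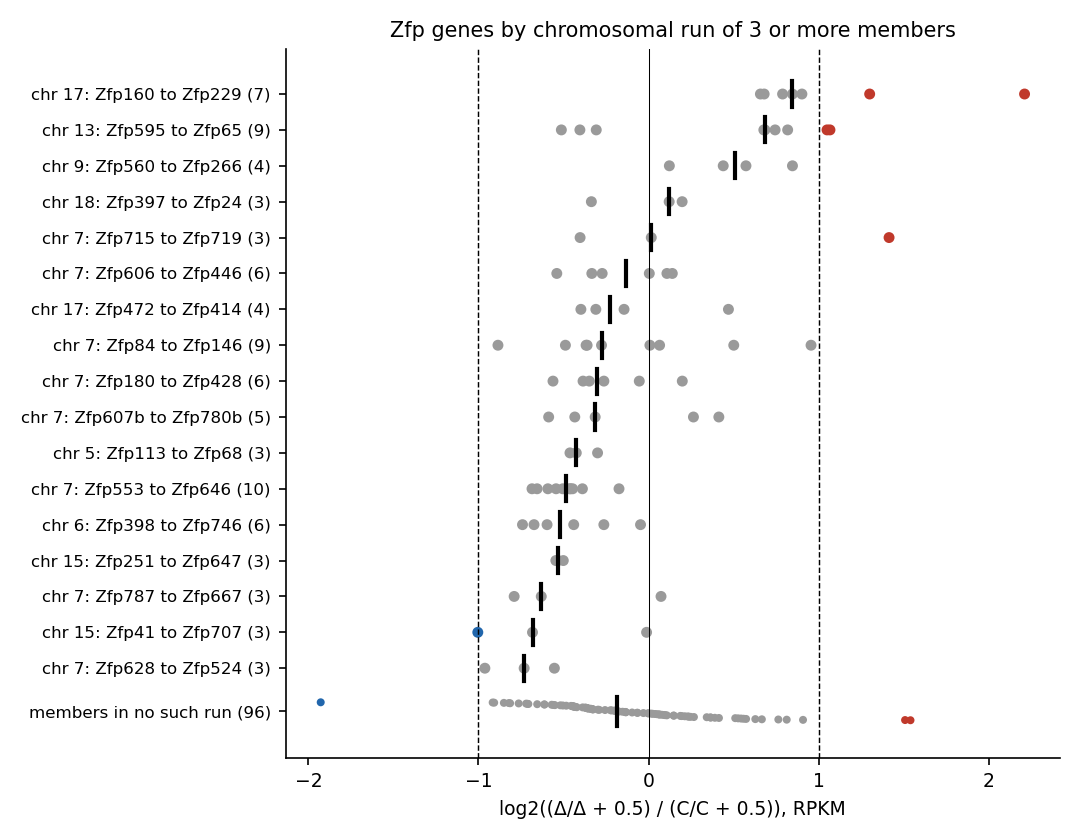
Log2 ratio of RPKM, Δ/Δ over C/C with 0.5 added, for the members of each of the 17 runs (number of members in brackets) and for the 96 members in no such run, 1 point per gene. Bars mark medians, red points genes called higher and blue points genes called lower. The chromosome 17 run from Zfp160 to Zfp229 is at the top with a median of 0.85, where 5 of 7 members passed the limit on level in Δ/Δ only, and 12 runs have a median below 0.

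Zinc fingers and KRAB boxes were counted in the members' proteins. Coding sequences from GENCODE were translated for 181 members, and 180 held at least 1 C2H2 finger, with a median of 10 and up to 36 in Zfp142. A strict form of the KRAB A box was found in 59 members, 4 of them higher and none lower, with a median log2 ratio of -0.15. A looser form, which was written after the strict one had missed boxes in several higher genes, was found in 72 members. With it 7 of the 72 were higher and none lower, and of the 109 without it none was higher and 2 were lower. Since the looser form was chosen with those genes in view, that split is a description of them. The medians were -0.06 with the looser box and -0.30 without, and -0.26 for the 56 members with the box outside the chromosome 13 and chromosome 17 runs. At 2 RPKM or more in both libraries the medians were -0.26 with the looser box (54 genes) and -0.24 without (100 genes). All 16 members of the 2 runs held the looser box. The 73 members with at least 12 fingers held 6 of the higher genes and had a median of -0.01. The 61 with 7 to 11 fingers had 1 higher gene and a median of -0.33, and the 47 with 0 to 6 fingers had 2 lower genes and a median of -0.30. Of these called genes only Zfp709 and Zfp41 passed the limit in both libraries, and the sign of the others follows from that limit. The finger classes were not compared at 2 RPKM or more in both libraries, so they show no trend free of the limit. Members with many fingers were also the less abundant: the median level of those with at least 12 was 3.98 RPKM in Δ/Δ and 3.31 RPKM in C/C, against 8.64 RPKM in Δ/Δ and 12.8 RPKM in C/C for those with up to 6.

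**Figure D5:**
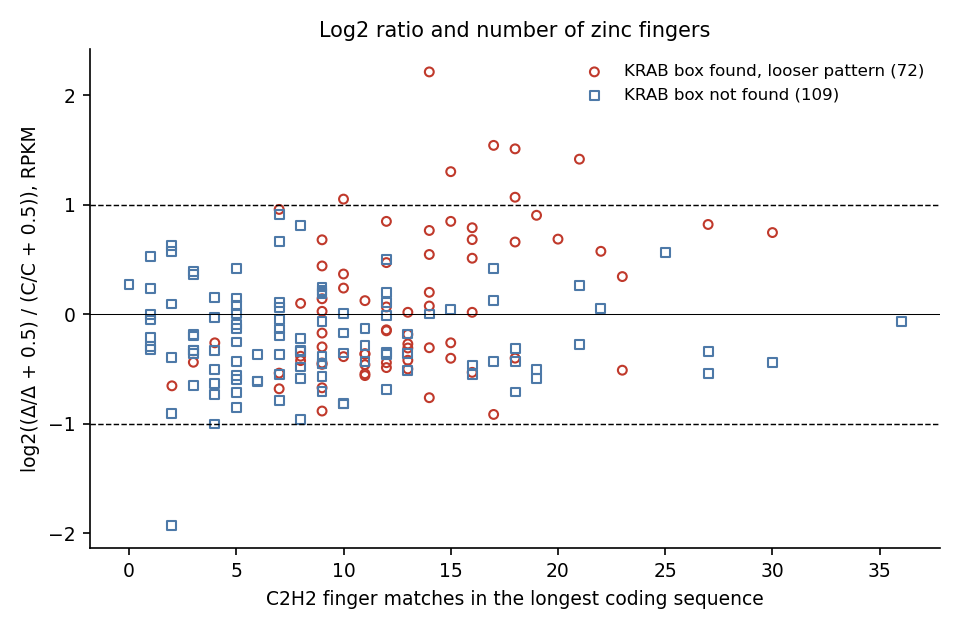
Log2 ratio of RPKM, Δ/Δ over C/C with 0.5 added, against the number of C2H2 finger matches in the longest coding sequence of 181 members, by whether the looser KRAB form was found (72, circles) or not (109, squares). The 7 points above the upper broken line are circles, and the 2 at or below the lower one are squares. Of those 7, 6 passed the limit on level in Δ/Δ only.

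KRAB repressors with known targets were within the rule or too low to be members. Zfp445, which guards imprinted genes, was at 8.02 RPKM in Δ/Δ and 6.94 RPKM in C/C. Zfp568, which silences a placental form of Igf2, was at 3.20 RPKM in Δ/Δ and 4.28 RPKM in C/C. Zfp57, the other imprinting factor, was nearly absent, with 0.0240 RPKM in Δ/Δ and a listed 0 in C/C. Zfp69 and Zfp30 were under 2 RPKM in both libraries. Among 20 listed partners of this pathway, 19 were found, with 2 higher, 1 lower and a median log2 ratio of 0.01. Over all genes past the limit 5.75% were higher and 6.41% were lower. Resf1, a regulator of SETDB1, was higher at 81.2 RPKM in Δ/Δ and 6.64 RPKM in C/C, a log2 ratio of 3.52 that exceeds that of any member. The histone deacetylase gene Hdac2 was higher at 84.4 RPKM in Δ/Δ and 33.4 RPKM in C/C, but with the longest annotated transcript its log2 ratio was 0.61, short of the rule. The remodeller gene Chd3 was lower at 14.8 RPKM in Δ/Δ and 64.7 RPKM in C/C. The other 16 had log2 ratios from -0.45 (Daxx) to 0.99 (Atrx). Trim28, which KRAB domains bind, was at 245.8 RPKM in Δ/Δ and 269.4 RPKM in C/C.

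Members that act on transcription and chromatin were, Zfp318 apart, within the rule. Of the 14 listed genes 13 were members, with 1 lower, none higher and a median log2 ratio of -0.26, against -0.09 over all genes. Of all genes past the limit, 5.75% were higher and 6.41% lower. The lower gene, Zfp318, passed the limit in C/C only, which fixed its sign. Zfp335, needed for T cell maturation, was at 12.01 RPKM in Δ/Δ and 17.4 RPKM in C/C. Zfp644, a partner of the H3K9 methyltransferases G9a and GLP, was at 16.5 RPKM in Δ/Δ and 24.3 RPKM in C/C. By these values both had the lower level in Δ/Δ without reaching 2-fold. For Zfp644 the value is of a short transcript, and its transcripts ranged from -0.90 to 0.12 on the log2 ratio. Its longest was at 10.1 RPKM in Δ/Δ and 11.55 RPKM in C/C, so size and direction depend on the transcript. Zfp521, which counteracts the B lineage factor Ebf1, was at 3.12 RPKM in Δ/Δ and 4.08 RPKM in C/C, while its relative Zfp423 was below 0.01 RPKM in both libraries. Zfp410, an activator of Chd4, was at 14.9 RPKM in Δ/Δ and 17.9 RPKM in C/C, and Zfp384, whose human namesake is fused to other genes in B cell leukaemia, was at 11.4 RPKM in Δ/Δ and 13.4 RPKM in C/C. Zfp217, Zfp687, Zfp131, Zfp148 and Zfp451 had log2 ratios between -0.39 and 0.21. The highest of the list was Zfp281, a transcription factor of pluripotent cells, at 4.42 RPKM in Δ/Δ and 3.25 RPKM in C/C.

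The 6 most abundant members were within the rule. Zfp207, which carries Bub3 to kinetochores on the spindle, was the most abundant, at 155.9 RPKM in Δ/Δ and 146.3 RPKM in C/C. Zfp330, a nucleolar protein and the 1 coding member without a C2H2 match, was at 42.0 RPKM in Δ/Δ and 34.8 RPKM in C/C. Zfp622, a factor of large ribosomal subunit maturation, was at 23.7 RPKM in Δ/Δ and 30.5 RPKM in C/C. The other 3 were Zfp428 at 38.1 RPKM in Δ/Δ and 39.6 RPKM in C/C, Zfp68 at 29.8 RPKM in Δ/Δ and 36.8 RPKM in C/C, and Zfp706 at 27.7 RPKM in Δ/Δ and 27.8 RPKM in C/C. The 9 genes listed for RNA, ribosomes and the spindle held no called gene and had a median log2 ratio of -0.03. Over all genes past the limit, 5.75% were higher, 6.41% were lower and the median was -0.09. The furthest apart was Zfp638, whose human namesake binds nucleic acid and silences unintegrated retroviral DNA, at 20.1 RPKM in Δ/Δ and 12.8 RPKM in C/C, a log2 ratio of 0.63. Zfp326, a splicing and elongation factor, was at 7.56 RPKM in Δ/Δ and 5.09 RPKM in C/C. Zfp598, the ubiquitin ligase that senses collided ribosomes, was at 14.9 RPKM in Δ/Δ and 18.8 RPKM in C/C. Zfp106, Zfp91 and Zfp346 had log2 ratios between -0.20 and -0.03.

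Zinc finger genes Zfp800 to Zfp999, the genes most like the members, are set beside them under the same limit. Of 97 such symbols 48 passed, 12 (25%) higher and 3 (6.25%) lower in Δ/Δ, with a median log2 ratio of 0.38. At 2 RPKM or more in both libraries, 30 passed, 3 higher and 1 lower, with a median of 0.17, against -0.26 for the 156 members under that limit. The difference between the 2 sets of genes was not tested, since genes are not replicates.

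Within most genes, the transcripts had similar log2 ratios. For 128 members with at least 2 transcripts at 0.5 RPKM or more, the log2 ratio spanned a median of 0.25 between transcripts, and it spanned over 1 in 5 genes. One of the 5 was the pseudogene Zfp125: its longer transcript was at 3.20 RPKM in Δ/Δ and 0.547 RPKM in C/C, a log2 ratio of 1.82, while the more abundant one, which stands for the gene, was at 7.60 RPKM in Δ/Δ and 7.25 RPKM in C/C. Another was Zfp62, in which 1 transcript was at 6.82 RPKM in Δ/Δ and 1.995 RPKM in C/C and the other 11 had log2 ratios of 0.19 to 0.75. The other 3 were Zfp788, Zfp644 and Zfp141. The transcript that stood for the gene was shorter than 1000 bases in 66 members, and in 9 members over 50% of its 101-base windows also occur in another gene.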

How the data were processed

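The authors deposited 1 table of RPKM values for 93615 Ensembl transcripts, with a column each for Setdb1 Δ/Δ (headed Del) and Setdb1 C/C (headed Wt). Per the submitters' processing notes, TopHat2 2.0.9, bedtools and the builds mm9 and mm10 were used; which build and counting mode made this table is not given in the sources used here. Per the labels' protocols, the libraries were made with a kit that keeps no strand, and sense and antisense reads cannot be told apart; 32 members overlap an exon on the opposite strand.

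GENCODE M21 (GRCm38) named 89571 transcripts (95.7%), and each gene is given by its transcript of highest mean RPKM. Members, lists, tests and named genes were chosen with earlier results of these data known. Named are the 12 highest and 12 lowest members by log2 ratio, the 6 most abundant, the members of the role lists, both runs with at least 2 called genes, 3 genes on each side of the level limit, Setdb1, and those of its listed partners that were called, with Trim28 and the range of the rest. Lists of partners and roles were described by counts and medians only.

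RPKM multiplied by transcript length gave multiples of 1 read, within 0.1 of a whole read for 95.5% of low values in Δ/Δ and 96.1% in C/C. Transcripts with 2 reads outnumbered those with 1 (750 against 540 in Δ/Δ, 662 against 601 in C/C), as they would if each mate was counted. At these depths, 3 reads on 2 kilobases are 0.00776 RPKM in Δ/Δ and 0.00879 RPKM in C/C. Ratios have exact 95% Poisson intervals from scipy 1.17.1. The calculations used Python 3.11.15, numpy 2.4.6, pandas 2.3.3, Biopython 1.88 and matplotlib 3.10.9, and were tested on simulated data. KRAB boxes were sought as leucine, tyrosine, any residue, aspartate or glutamate, valine, methionine, and more loosely with other residues at these places. Both forms can miss boxes. Of 183 members, 150 matched a RefSeq promoter by symbol. Alternatives covered the pseudocount of 0.5 RPKM, the limit on level, scaling, the transcript chosen and the size rule.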

Additional observations from a re-analysis of the deposited data

How the results depend on the processing

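The counts of called members were small and moved with the settings. Members higher in Δ/Δ, 7 as reported, were 3 with a limit of 5 RPKM, 1 with 2 RPKM required in both libraries and 1 under a 4-fold rule, and from 5 to 9 under the others. Members lower, 2 as reported, were 5 with a pseudocount of 0.1 RPKM, 1 with a pseudocount of 1, 1 with 2 RPKM in both libraries, 1 when centred on the median of all genes, 1 with a common RPKM sum, and 0 under a 4-fold rule. Without a limit on level the members' median log2 ratio was -0.0566. Among all genes, 3.52% were higher and 3.62% lower with 2 RPKM in both libraries, 2.37% and 2.40% without a limit, and 1.87% and 2.04% under a 4-fold rule. Members with the strict KRAB form that were higher, 4 as reported, were 2 with a limit of 5 RPKM, 0 with 2 RPKM in both libraries and 7 with the looser form, which was chosen after seeing the data; 1 was lower with a pseudocount of 0.1 RPKM. Leaving out members with most windows in another gene, also chosen after seeing the data, left 6 higher. No called gene changed direction, but the order of the 2 shares of all genes did. As reported, 5.75% were higher and 6.41% lower. Higher genes outnumbered lower ones when centred on the median (6.67% and 5.62%) and with a common RPKM sum (6.52% and 5.80%). So they did among protein-coding genes only (4.97% and 4.73%), a setting chosen after seeing the data. The cause of these moves was not tested. Of 486 values of named genes under 6 alternatives, 458 kept their side of the rule and 11, all of genes not called, changed sign. Much of this was fixed in advance. A pseudocount or the 4-fold rule cannot change a sign, and the 4-fold rule cannot add a call. Values centred on the median were not taken for named genes. The 11 arose with a common sum, the longest transcript or the mean of transcripts. With the longest transcript these included Zfp748 (0.21), Zfp58 (0.29), Zfp68 (0.14), Zfp106 (0.18), Zfp207 (-0.07) and Cbx5 (0.07). Zfp106 (0.12) also did so with the mean of transcripts, and Zfp346 (0.05), Zfp428 (0.03) and Zfp706 (0.08) with a common sum. Zfp41 fell short with a pseudocount of 1 RPKM (-0.91), a common sum (-0.93) and the longest transcript (-0.999). Zfp595 fell short with a pseudocount of 1 RPKM (0.91), the longest transcript (0.75) and the mean of transcripts (0.83), and Zfp429 with a pseudocount of 1 RPKM (0.86). With a pseudocount of 0.1 RPKM, Zfp51 (1.05) and Zfp566 (1.11) became higher and Zfp169 (-1.01), Zfp516 (-1.03) and Zfp579 (-1.13) lower. With the longest transcript Zfp729b (1.001) became higher and Zfp382 (-1.03) lower, and with a common sum Zfp566 (1.03) became higher. With 1 library per genotype, depth limits little and the lack of replicates limits every difference. No paired analysis was possible because each genotype had 1 library.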

Other observations

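Of the genes left out for a symbol beginning Zfp36, Zfp36, Zfp36l1 and Zfp36l2, which encode CCCH proteins that bind AU-rich RNA and speed its decay, were lower in Δ/Δ by the same size rule. Zfp36 was at 18.3 RPKM in Δ/Δ and 40.04 RPKM in C/C, Zfp36l1 at 16.2 RPKM in Δ/Δ and 34.3 RPKM in C/C, and Zfp36l2 at 14.0 RPKM in Δ/Δ and 32.7 RPKM in C/C. The naming rule also left out Zfp362, Zfp367 and Zfp369, which were at 8 RPKM or more in both libraries and not called.

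Most of the 111 Zfp1 to Zfp799 genes under 2 RPKM were barely expressed. They had a median of 0.383 RPKM in Δ/Δ and 0.434 RPKM in C/C, 73 stayed under 1 RPKM in both libraries, and 11 were listed at 0 in both.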
